A study of Mus musculus with 8 samples.

Results

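ChIP-seq peaks lying within 250 kb of either end of a mouse autosome were examined, that is, peaks on chromosomes 1 to 19 that start within 250 kb of the lowest peak start or end within 250 kb of the highest peak end of their chromosome, with both limits taken over 6 peak lists. The rule uses position only and no measured value. It selected 5767 of the 1719263 deposited peaks, 2508 of them on the low-coordinate side, called here the centromere side, and 3259 on the high-coordinate side, called the telomere side. The 38 windows add up to 9.5 Mb, which is 0.395% of the autosomal span covered by the lists. No peak lay in both windows of a chromosome.

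The chromatin came from primary neural progenitor cells grown from the hippocampus of male C57BL/6 mice and fixed with formaldehyde, with no other treatment named in the labels. Antibodies to 3 proteins were used with 2 replicates each; the 2 input samples have no peak list and were not used here. Mgea5, now called Oga, is the glycosidase that takes O-GlcNAc off serine and threonine residues. Panx2 belongs to the pannexins, which form large-pore channels. Polr1c is part of both RNA polymerase I and RNA polymerase III. Whether replicates were grown or dissected separately is not stated in the labels, and their spread may therefore be technical. Mgea5 contributed 1694 and 1663 member peaks (replicates 1 and 2), Panx2 680 and 1459, and Polr1c 45 and 226. On the build used, mm10, the peak names show that Panx2 replicate 1 and Polr1c replicate 1 were called in a different run from the other 4 lists, so for these proteins replicate and calling run cannot be told apart.

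Mouse autosomes are telocentric: the centromere sits at the very start of each chromosome, in long arrays of satellite repeats that the reference assembly leaves out as a run of unknown bases. The low coordinates in the lists therefore lie at or near the start of the assembled sequence. The high coordinates lie at or near its end, before the telomere, whose repeat TTAGGG is likewise not assembled to its end. Whether satellite or telomere repeats occur inside the windows was not examined, apart from TTAGGG in promoters. Sequence next to both kinds of end is rich in segmental duplications and in young multigene families.

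Sequences are shown for some annotated elements of the windows. They are promoters chosen among those that the most lists overlapped, a microRNA next to a member region called in all 6 lists, and microRNAs of another cluster. All are RefSeq sequences on GRCm38.p6, whose coordinates are those of mm10, printed 5′ to 3′ on the strand of the gene. RefSeq promoter entries, which run from 250 bases before to 50 bases after a gene's start, were found for 34 genes on the centromere side (43 promoters) and for 65 genes on the telomere side (77 promoters). The highest number of lists overlapping any of these 120 promoters was 4. D830030K20Rik (chr14:3208243-3208542, plus strand) is a gene of a repeated family at the low end of chromosome 14, and Tmem196 (chr12:119945877-119946176, plus strand) encodes a transmembrane protein and is the last protein-coding gene of chromosome 12. Capitals mark the bases inside the peak of Polr1c replicate 2, 193 and 272 of the 300 bases.
D830030K20Rik promoter: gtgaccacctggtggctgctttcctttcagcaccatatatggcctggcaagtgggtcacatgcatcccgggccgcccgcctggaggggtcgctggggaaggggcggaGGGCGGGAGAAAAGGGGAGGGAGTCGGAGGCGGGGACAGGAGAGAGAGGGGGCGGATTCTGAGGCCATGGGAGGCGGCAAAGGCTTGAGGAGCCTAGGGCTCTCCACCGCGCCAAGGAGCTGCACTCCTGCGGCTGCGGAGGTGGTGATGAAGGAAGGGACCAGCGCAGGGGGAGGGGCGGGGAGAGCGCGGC
Tmem196 promoter: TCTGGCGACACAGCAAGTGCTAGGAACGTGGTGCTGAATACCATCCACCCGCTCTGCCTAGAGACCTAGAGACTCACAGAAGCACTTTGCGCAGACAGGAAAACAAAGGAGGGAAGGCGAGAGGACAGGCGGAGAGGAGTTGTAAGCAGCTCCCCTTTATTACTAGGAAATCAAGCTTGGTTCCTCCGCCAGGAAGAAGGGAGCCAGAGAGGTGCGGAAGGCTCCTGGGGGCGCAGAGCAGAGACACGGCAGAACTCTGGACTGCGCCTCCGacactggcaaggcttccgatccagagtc
Both lie in a peak of Mgea5 replicate 1, Mgea5 replicate 2, Panx2 replicate 2 and Polr1c replicate 2, and in no peak of Panx2 replicate 1 or Polr1c replicate 1. At the D830030K20Rik promoter the deposited fold enrichment over background was 1.81, 1.91, 2.07 and 3.36 in those 4 lists, and at the Tmem196 promoter 1.81, 1.74, 1.97 and 2.25. None of these 8 peaks reached a q of 0.01 in its list.

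MicroRNA genes are shown as well, because Mir101c borders the low end of chromosome 9, a member region called in all 6 lists. Its mature sequence lies at chr9:3038680-3038698 on the minus strand, and the gene began 364 bp beyond that region. Also shown are 3 mature sequences that share a seed, from the Mir290 to Mir295 cluster at the low end of chromosome 7. This is the main microRNA cluster of mouse embryonic stem cells. Another 3 sequences of the cluster share a different seed and are not shown. Capitals mark the seed, bases 2 to 8.
miR-101c: aCAGUACUgugauaacuga
miR-291a-3p: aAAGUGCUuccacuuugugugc
miR-294-3p: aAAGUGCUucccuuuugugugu
miR-295-3p: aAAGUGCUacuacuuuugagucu
Within 5 kb of Mir101c all 6 lists had peaks with a q of at most 0.01. Within 5 kb of Mir290a, by contrast, only Mgea5 had peaks, with highest folds of 1.63 and 1.62 and no q of at most 0.01.

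The first comparison asked whether the ends carry more or fewer peaks than the interior. Near the centromere side, Mgea5 peaks were sparser than in the rest of the autosomes and Polr1c peaks were denser. In Mgea5 replicate 1 there were 134 peaks per Mb on the centromere side, 222 on the telomere side and 221 in the rest. Mgea5 replicate 2 had 155, 195 and 215 peaks per Mb. Relative to the rest, the centromere side stood at 0.609 and 0.722 in these 2 lists and the telomere side at 1.01 and 0.905. The Panx2 replicates differed in direction: replicate 1 had 72.2, 70.9 and 59.7 peaks per Mb (ratios of 1.21 and 1.19), and replicate 2 had 129, 178 and 196 (ratios of 0.656 and 0.908). The spread between the Panx2 replicates was thus larger than the distance of either from an even density, and it coincides with the split between calling runs.

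Polr1c replicate 1 had 39 peaks on the centromere side and 6 on the telomere side, against 715 in the rest. This gives 8.21, 1.26 and 0.299 peaks per Mb, and ratios of 27.5 (95% exact Poisson interval 19.5 to 37.6) and 4.23 (1.55 to 9.20). The intervals treat each peak as an independent count. Peaks lay in clusters, as given below, so the intervals understate the uncertainty and do not serve as a test. Polr1c replicate 2 had 138 and 88 peaks in the windows, 29.1 and 18.5 per Mb against 14.7 in the rest, and ratios of 1.98 (1.66 to 2.34) and 1.26 (1.01 to 1.56). Both Polr1c lists were above 1 on both sides. A region at the low end of chromosome 9, described further on, held 27 of the 39 and 39 of the 138 centromere-side peaks. Without it the centromere-side ratios were 8.53 and 1.43. Of the peaks outside it, 6 and 32 lay in the centromere-side window of chromosome 11. Set against the rest of the same chromosome, the median ratio of the 19 centromere-side windows was 0 and 1.20.

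**Figure D1:**
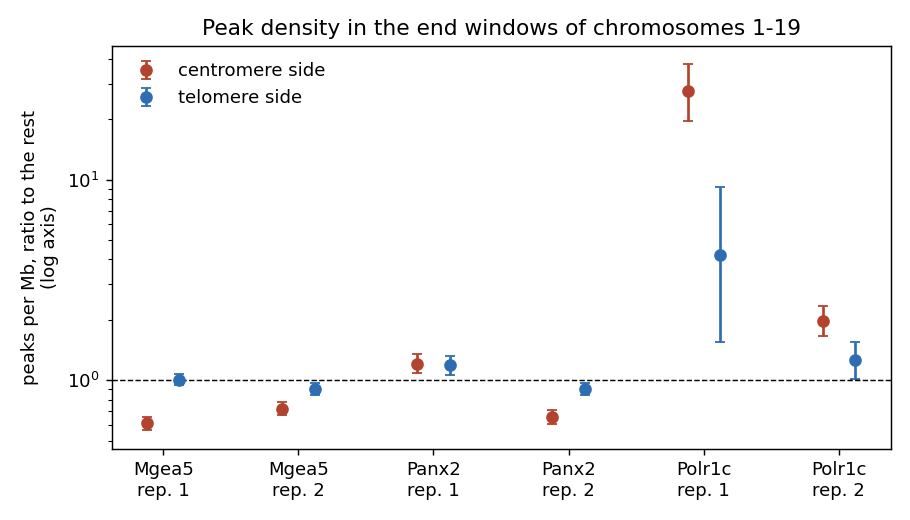
Peaks per Mb in the 250 kb windows at the centromere side (red) and the telomere side (blue), as a ratio to the rest of chromosomes 1 to 19 in the same list, on a log axis; points are the 6 peak lists, bars are 95% exact Poisson intervals of the window count, and the dashed line is an even density. The 2 Mgea5 lists and Panx2 replicate 2 sit below 1 on the centromere side, at 0.609, 0.722 and 0.656, and Polr1c replicate 1 sits at 27.5. The bars treat peaks as independent although they lay in clusters, so they understate the uncertainty.

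Over the 6 libraries the mean ratio was 5.44 ± 10.8 (SD, n = 6) on the centromere side and 1.58 ± 1.30 on the telomere side. The centromere side was above the rest in 3 of 6 lists and the telomere side in 4 of 6. Neither departed from the rest beyond the spread between libraries (two-sided exact sign-flip permutation test, p = 0.5 and 0.21875, adjusted p = 0.683 and 0.656 by Benjamini-Hochberg over 9 tests). The 2 sides did not differ from each other either, with the centromere side higher in 3 of 6 lists (exact permutation p = 0.53125, adjusted p = 0.683). With 6 libraries the smallest p this test can give is 0.03125. Without Polr1c replicate 1 the mean difference from the rest was 0.0355 on the centromere side and 0.0544 on the telomere side, against 4.44 and 0.583 with it, so that library sets the size of the pooled means.

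The density was uneven within the windows. In the last 1 kb of the telomere side the density was 4.05 and 3.42 times that of the rest for Mgea5, 7.05 and 4.02 times for Panx2, and 352 and 32.3 times for Polr1c, from 17, 14, 8, 15, 2 and 9 peaks. Between 1 and 10 kb from the same end it was 1.03, 0.788, 0.784 and 0.685 times the rest in the Mgea5 and Panx2 lists, and 0.399 times in Polr1c replicate 2. Polr1c replicate 1 had no peak there. Part of the excess in the last 1 kb follows from the rule, because the outermost peak of the 6 lists sets each end. On the centromere side the first 1 kb held 9, 10, 6, 6, 2 and 2 peaks in the order of the lists. The Mgea5 density was lowest, at 0.467 and 0.553 times the rest, between 50 and 100 kb. In Polr1c replicate 1 it was lower with each step of distance, from 137 times the rest at 1 to 10 kb, to 96.9 at 10 to 50 kb, 14.1 at 50 to 100 kb and 4.70 at 100 to 250 kb, and in Polr1c replicate 2 from 6.38 to 4.22, 1.87 and 1.12. The bins up to 50 kb hold the chromosome 9 region. The gene Sfi1 at the low end of chromosome 11 held 6 and 23 Polr1c peaks. Its regions of q at most 0.01 lie in the bin of 50 to 100 kb. A decline with distance is therefore not shown for the other ends.

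**Figure D2:**
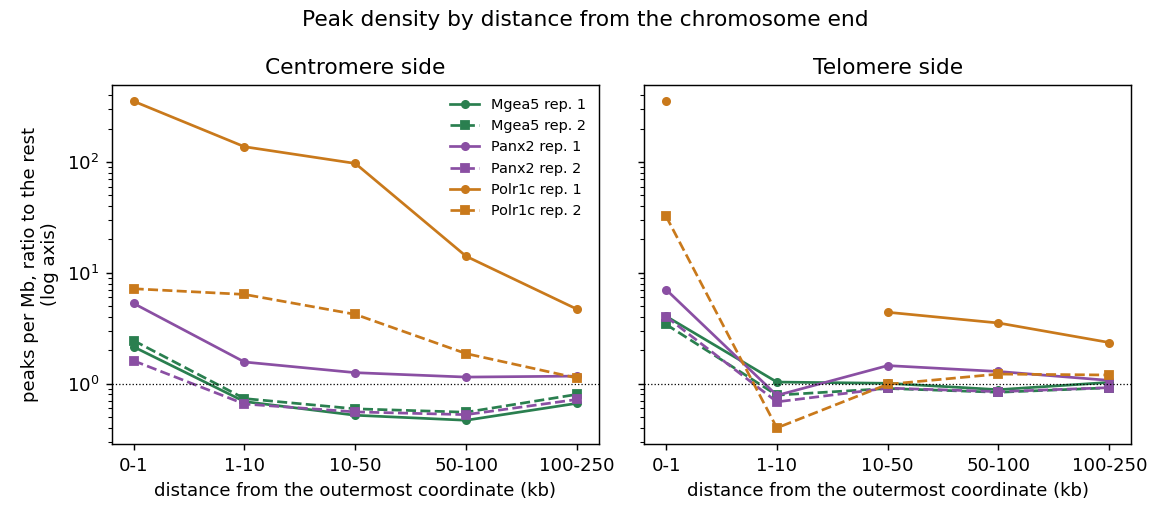
Peak density as a ratio to the rest of the autosomes (log axis) in 5 bins of distance from the outermost coordinate in kb, for the centromere side (left) and the telomere side (right); each line is a peak list, solid for replicate 1 and dashed for replicate 2, and the bin without a peak in Polr1c replicate 1 is left blank. The telomere-side lines of Mgea5 and Panx2 are highest in the first bin, at 3.42 to 7.05, while the Polr1c lines on the centromere side stay above 1 in all 5 bins.

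Chromosomes differed widely. On the centromere side Mgea5 was above the rest of its own chromosome at 2 of 19 ends in replicate 1 and at 4 of 19 in replicate 2, Panx2 at 14 and 2, and Polr1c at 7 and 11. The centromere-side window of chromosome 11 had the most peaks in both Mgea5 lists and in Panx2 replicate 2. It held 67 and 84 Mgea5 peaks, 23 and 69 Panx2 peaks, and 6 and 32 Polr1c peaks. In Panx2 replicate 1 the window of chromosome 14 had the most (28), and in Polr1c that of chromosome 9 (27 and 41). The window with the fewest Mgea5 and Panx2 peaks together was that of chromosome 3, with 14 and 9 Mgea5 peaks, 10 and 8 Panx2 peaks and no Polr1c peak. Across the 4 broad lists together the 3 fullest centromere-side windows were those of chromosomes 11, 2 and 4 (243, 186 and 185 peaks), and the 3 with the fewest peaks those of chromosomes 7, 9 and 3 (64, 55 and 41). Few peaks did not mean little coverage on chromosome 9, where peaks covered 16.6% and 17.8% of the window for Mgea5 and 17.1% and 18.4% for Panx2, since its peaks include very wide ones. On the telomere side chromosomes 3, 2 and 7 were the fullest (247, 239 and 202 peaks) and chromosomes 17, 19 and 14 had the fewest peaks (136, 132 and 45). By number of peaks, chromosome 3 thus had the lowest count at its low end and the highest at its high end. In 12 of 19 centromere-side windows Polr1c replicate 1 had no peak, and in 4 of 19 Polr1c replicate 2 had none.

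Laboratory mice carry arrays of 45S ribosomal RNA genes, the template of RNA polymerase I, beside the centromeres of chromosomes 12, 15, 16, 18 and 19, and Polr1c is a subunit of that polymerase. The arrays themselves lie outside the windows. Polr1c replicate 1 had 2 peaks in the 5 centromere-side windows of these chromosomes and 10 in the 13 windows of the other chromosomes without chromosome 9. Polr1c replicate 2 had 23 and 74 peaks there, a mean of 4.60 and 5.69 per window, and the windows ranged from 0 to 11 and from 0 to 32. The Mgea5 means were 25.4 and 28 per window beside the arrays against 38.5 and 45.1 elsewhere. No test was made, since chromosomes are not replicates.

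The second comparison concerned the strength of the member peaks. A q of at most 0.01 was rare in the broad lists: 0.02% and 0.0205% of the autosomal peaks of Mgea5 and 0.00766% and 0.0738% of those of Panx2 reached it, against 27.9% and 3.63% of those of Polr1c. In the windows it was more frequent on both sides in 6 of 6 lists. Mgea5 replicate 1 had 2 such peaks among 638 on the centromere side (0.313%) and 11 among 1056 on the telomere side (1.04%), against 0.0176% in the rest. Mgea5 replicate 2 had 2 among 738 (0.271%) and 9 among 925 (0.973%), against 0.0184%. Panx2 replicate 1 had 4 and 5 (1.17% and 1.48%), while its whole interior held 2 of 142898 (0.0014%). In Panx2 replicate 2 there were 4 and 12 (0.654% and 1.42%, against 0.0706%). For Polr1c the shares were 71.8% (28 of 39) and 50% (3 of 6) against 25.3% in replicate 1, and 44.9% (62 of 138) and 17.0% (15 of 88) against 3.44% in replicate 2.

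**Figure D3:**
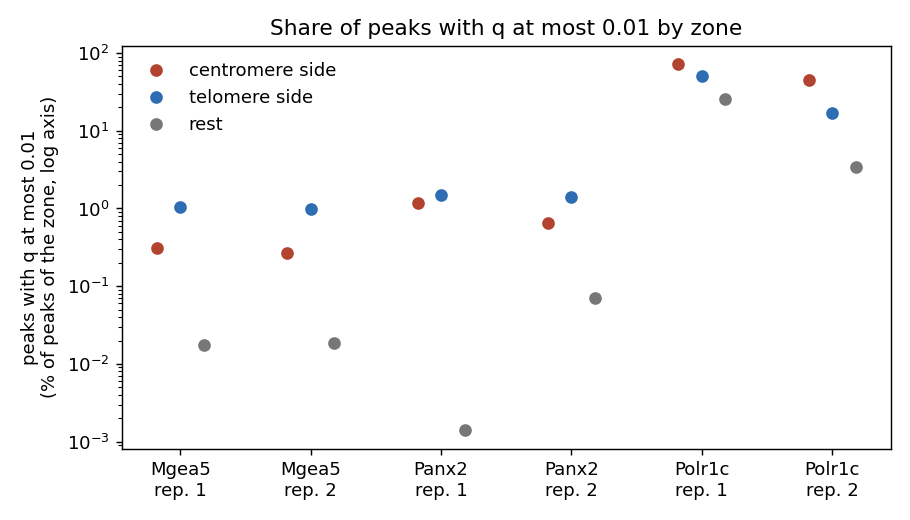
Share of the peaks of each zone with a q of at most 0.01, in percent on a log axis, for the 6 peak lists; red is the centromere side, blue the telomere side and grey the rest of chromosomes 1 to 19. Both window points lie above the grey point in every list, from 0.313% and 1.04% against 0.0176% in Mgea5 replicate 1 to 71.8% and 50% against 25.3% in Polr1c replicate 1.

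The mean excess over the rest was 15.04 ± 22.5 percentage points (SD, n = 6) on the centromere side and 7.18 ± 9.91 on the telomere side. Without Polr1c replicate 1 these means were 8.76 and 3.68 points. With all 6 libraries both reached the smallest p the design allows (two-sided exact sign-flip permutation test, p = 0.03125), and neither passed a threshold of 0.05 after adjustment over the 9 tests (adjusted p = 0.140625). At that smallest p neither could pass unless most of the 9 tests reached it too. The adjusted result therefore cannot decide whether the share differed. The sides differed in opposite directions among the lists: the share was higher on the telomere side in the 4 Mgea5 and Panx2 lists and on the centromere side in both Polr1c lists, which gave no difference beyond the spread (exact permutation p = 0.5, adjusted p = 0.683). Without the chromosome 9 region the mean centromere-side excess was 0.695 points. That mean joins lists that went both ways. Polr1c replicate 2 kept 24.2% (24 of 99) against 3.44% in the rest, Mgea5 kept 0.157% and 0.136%, and Panx2 replicate 2 kept 0.164%, all above the rest. Polr1c replicate 1 had 8.33% (1 of 12) against 25.3%, and Panx2 replicate 1 had no such peak left there. On the telomere side the excess lay mostly in the last 1 kb: without the peaks there the mean was 0.713 points. The share then stayed above that of the rest in Mgea5 (0.192% and 0.110%), Panx2 replicate 2 (0.240%) and Polr1c replicate 2 (7.59%). It was 0 in Panx2 replicate 1 and 25% in Polr1c replicate 1.

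Fold and q placed the Polr1c members differently. The deposited fold was ranked within each list as a percentile, since lists differ in length and cut-off. The rest holds nearly all peaks of each list, so its median lies near the middle of the scale. On the centromere side and the telomere side the median percentile was 50.4 and 49.8 in Mgea5 replicate 1, and 52.5 and 50.9 in replicate 2. In Panx2 it was 54.0 and 48.6 in replicate 1, and 54.98 and 52.6 in replicate 2. In Polr1c replicate 1 it was 5.53 and 1.78, against 52.9 in the rest, and in replicate 2 it was 24.5 and 50.1, against 50.1. As a whole, the Polr1c members of the centromere side had low folds for their lists. Their medians were 2.06 and 2.45 against 3.05 and 2.75 in the rest, and their median percentile by −log10 q was 97.4 and 89.8. The chromosome 9 region held 27 of these 39 and 39 of these 138 peaks, at median fold percentiles of 5.26 and 15.2. Between 100 and 250 kb from the low ends, 4 and 47 peaks had median fold percentiles of 37.6 and 50.1. By −log10 q their medians were 32.6 and 54.0. Low folds with a high −log10 q were thus not shown across the whole window. Without Polr1c replicate 1 the mean difference in fold percentile between the centromere side and the rest was -2.74, against -10.2 with it. Over the 6 libraries the fold percentile did not differ between zones beyond the spread (exact permutation p of 0.5, 0.6875 and 1, adjusted p of 0.683, 0.773 and 1 for centromere side against rest, telomere side against rest, and the sides against each other).

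The outermost peaks of the telomere side were shared between lists. At 10 of 19 high ends at least 4 lists had a peak within 1 kb of the highest coordinate, against 2 of 19 low ends. With a q of at most 0.01 this was so at 8 high ends, those of chromosomes 1, 2, 3, 7, 12, 14, 16 and 18, and at 1 low end, that of chromosome 9. A further 2 high ends, of chromosomes 19 and 13, had such peaks in 3 and 2 lists, and the remaining 9 high ends had none. At the other 18 low ends no list had a peak of that q within 1 kb. Of the 55 telomere-side member peaks with a q of at most 0.01, 43 lay in the last 1 kb. By list these were 9 of 11 and 8 of 9 for Mgea5, 5 of 5 and 10 of 12 for Panx2, and 2 of 3 and 9 of 15 for Polr1c. Panx2 replicate 2 reached furthest at 11 of the 19 high ends, and tied with Mgea5 replicate 1 at 1 more. Since the highest peak end defines each window, at least 1 list has a peak there by construction, but neither its q nor the number of further lists is fixed by the rule.

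**Figure D4:**
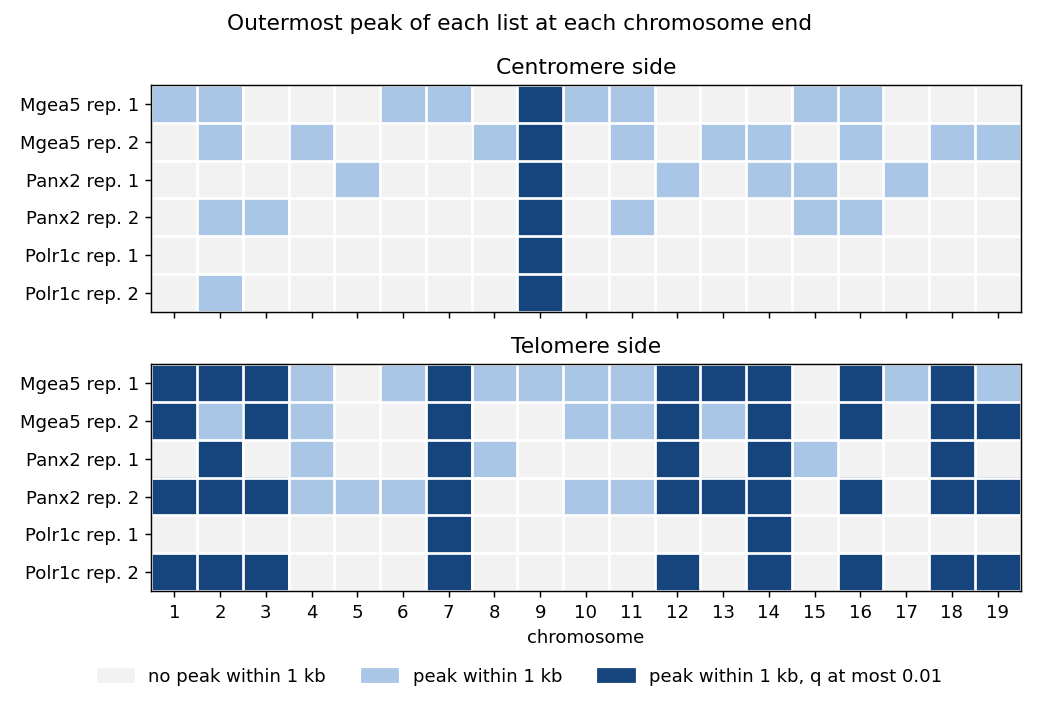
Peaks within 1 kb of the outermost coordinate of each autosome, by chromosome (columns) and peak list (rows), for the centromere side (top) and the telomere side (bottom); pale blue is a peak, dark blue a peak with a q of at most 0.01, grey none. The telomere side has 10 columns with dark cells, of which those of chromosomes 7 and 14 are dark in all 6 lists, and the centromere side has 1, that of chromosome 9.

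At the high end of chromosome 7 (chr7:145340491-145341442) the 6 peaks ended 0 to 127 bp from the highest coordinate. Mgea5 had folds of 2.18 and 1.73 there, with a −log10 q of 8.33 and 3.42. Panx2 had folds of 2.05 and 3.64, with 73.6 and 25.6, and Polr1c had folds of 1.46 and 2.02, with 11.4 and 8.17. By fold these peaks were at the 98.1 and 57.3 percentile of the Mgea5 lists and the 91.9 and 99.9 percentile of the Panx2 lists, but at the 0.921 and 2.86 percentile of the Polr1c lists. By −log10 q they were at the 99.0 percentile or above in 5 lists and at the 89.5 percentile in Polr1c replicate 1. The nearest gene, Mrgprd, which encodes a receptor of sensory neurons, ends 16432 bp away.

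The high end of chromosome 14 (chr14:124801561-124802229) had the same make-up although its window had the fewest peaks of the telomere side in the broad lists. The 6 peaks were 406 to 669 bp wide and ended 0 to 142 bp from the highest coordinate. Their folds were 1.78, 1.75, 2.34, 3.55, 1.36 and 2.15 in the order of the lists, with a −log10 q of 3.11, 3.11, 86.9, 18.996, 5.74 and 10.2. In the window as a whole Mgea5 had 15 and 13 peaks, Panx2 5 and 12, and Polr1c 1 and 1, so the terminal peak was the only Polr1c member there in either list. The nearest gene is Fgf14, whose product binds sodium channels in neurons, 123875 bp away.

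The other shared high ends followed with fewer lists. On chromosome 12 the region chr12:120028661-120029010 was called in 5 lists, all but Polr1c replicate 1, with folds of 2.27 and 1.70 for Mgea5, 2.16 and 3.30 for Panx2 and 2.31 for Polr1c replicate 2. It lies 7419 bp beyond Tmem196, whose promoter is printed above. On chromosome 18 the region chr18:90602186-90602626 was also called in those 5 lists, with folds of 1.89, 1.87, 2.13, 3.25 and 2.02, 8462 bp from Gm45871. The ends of chromosomes 16, 3 and 1 were called in both Mgea5 lists, Panx2 replicate 2 and Polr1c replicate 2. That of chromosome 2 was called in Mgea5 replicate 1, both Panx2 lists and Polr1c replicate 2. Panx2 replicate 1 and Polr1c replicate 1, the lists of the other calling run, were those most often missing.

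On chromosome 3 the terminal region (chr3:159938147-159939672) reaches the end of Wls through the Mgea5 replicate 1 peak. The peaks of the other 3 lists start beyond the gene, at 159939430 in Mgea5 replicate 2 and Panx2 replicate 2 and at 159939444 in Polr1c replicate 2. Wls encodes Wntless, the carrier that takes Wnt ligands to the cell surface. The folds in the region were 1.78 and 1.75 for Mgea5, 2.58 for Panx2 replicate 2 and 2.44 for Polr1c replicate 2, with a −log10 q of 2.21, 3.02, 9.10 and 12.5. The Wls body, 159839650 to 159938666, held 36 and 31 Mgea5 peaks, 7 and 23 Panx2 peaks, and 0 and 2 Polr1c peaks. Wls was the only outermost protein-coding gene of any of the 38 ends with a member peak of q at most 0.01 within 1000 bp of a gene end.

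A minority of the strong telomere-side regions lay away from the end itself. At chr9:124256310-124258008, 234642 bp from the high end of chromosome 9, a region of 1699 bp was called in 5 lists, all but Panx2 replicate 1. Its folds were 1.84 and 1.65 for Mgea5, 2.51 for Panx2 replicate 2 and 1.69 and 2.87 for Polr1c, and the nearest gene, Gm39469, was 9876 bp away. On chromosome 1 the region chr1:195240653-195241869, 130104 bp from the end, was called in Mgea5 replicate 1, Panx2 replicate 2 and Polr1c replicate 2. Polr1c replicate 2 alone called 2 regions on chromosome 3, with folds of 4.28 and 4.25, and 2 on chromosome 2, with folds of 3.003 and 2.41.

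The strong part of the centromere side was largely 1 region. At the low end of chromosome 9, from 2999994 to 3038305, peaks of q at most 0.01 from all 6 lists joined into a stretch of 38312 bp. Mgea5 covered it with 1 peak in each replicate, of 38296 and 38288 bp, with folds of 2.12 and 1.80 and a −log10 q of 8.36 and 3.98. Panx2 covered 89.2% and 96.1% of it with 4 and 3 peaks, with highest folds of 1.78 and 3.27 and a highest −log10 q of 233 and 21.9. Polr1c had 27 and 39 peaks there, covering 37.2% and 69.6%, with highest folds of 2.66 and 2.83 and a highest −log10 q of 547 and 19.97. The values of 547 and 233 were the highest of any autosomal peak in Polr1c replicate 1 and in Panx2 replicate 1. No annotated gene overlaps the stretch, and Mir101c, whose mature sequence is printed above, is the nearest.

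**Figure D5:**
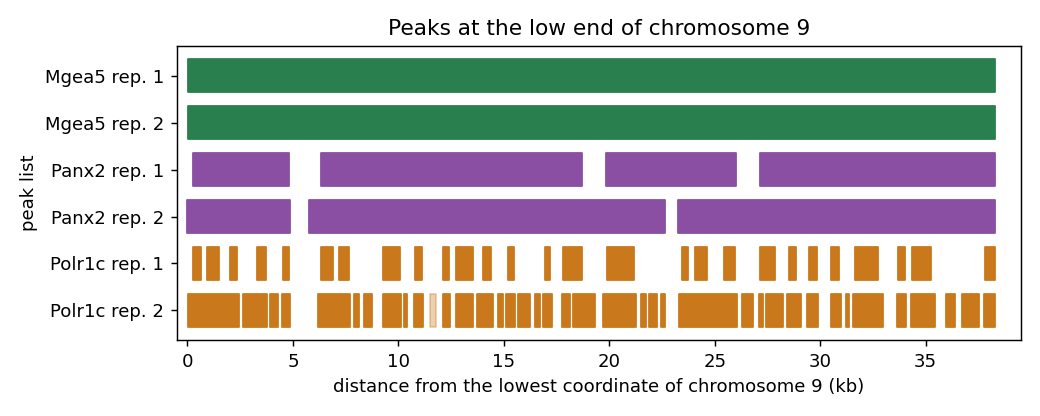
Peaks of the 6 lists over the region at the low end of chromosome 9, by distance from its lowest coordinate in kb; each bar is a peak drawn to scale, coloured by protein, and the pale bar is the Polr1c replicate 2 peak above a q of 0.01. The Mgea5 lists span the region with 1 peak each, and Polr1c divides it into 27 and 39 peaks.

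Since Polr1c replicate 2 covered most of this stretch, an overlap of the Polr1c replicates there says little about matching positions. All 27 peaks of replicate 1 overlapped a replicate 2 peak, and 24 of the 39 peaks of replicate 2 (61.5%) overlapped a replicate 1 peak. Their median widths were 409 and 439 bp, and the median gap between neighbouring peaks was 794 and 228 bp. In replicate 1 all 27, and in replicate 2 37 of 39, had a fold below the median of their list. Polr1c was deposited in narrowPeak format and the other proteins in broadPeak format, so the number of peaks cannot be compared between these proteins.

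The other centromere-side regions were called in few lists. The region chr12:3109807-3110132, 109498 bp from the low end of chromosome 12, was called in both Mgea5 lists (folds of 2.53 and 2.04), Panx2 replicate 2 (3.41) and Polr1c replicate 2 (2.44), with a −log10 q of 11.7, 5.71, 20.8 and 15.9. The nearest gene is the pseudogene Gm48310, 54599 bp away. The remaining 15 of the 17 centromere-side regions were found in Polr1c alone. Of these, 1 was called in both replicates, at chr11:3172447-3172862 in the body of Sfi1, a centrin-binding protein of the centrosome, with folds of 2.79 and 2.90. Polr1c replicate 2 called 5 further regions in Sfi1, 4 on chromosome 10, 2 on chromosome 4 beside the vomeronasal receptor gene Vmn1r2, 2 on chromosome 18 and 1 on chromosome 6. The highest fold among them was 4.67, at chr4:3165135-3165385.

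Sfi1 (chromosome 11, 3131850 to 3203347) lies in the crowded window at the low end of chromosome 11. Its body held 19 of the 67 and 21 of the 84 Mgea5 peaks of that window, 11 of the 23 and 20 of the 69 Panx2 peaks, and 6 of the 6 and 23 of the 32 Polr1c peaks. The gene covers a sizeable part of the window, and these counts were not adjusted for its length. For Mgea5 and Panx2 they therefore do not show a concentration of peaks in Sfi1. The highest −log10 q in it was 1.79 and 1.80 for Mgea5 and 0.419 and 0.693 for Panx2, which is a q above 0.01, and 3.26 and 8.11 for Polr1c. It was also the only outermost protein-coding gene with peaks of all 6 lists within 1000 bp of its ends, with folds of 1.61 and 1.51, 2.16 and 2.33, and 2.15 and 1.59. Its neighbour Eif4enif1, which encodes a transporter of the cap-binding protein eIF4E, held 12 and 13 Mgea5, 3 and 14 Panx2, and 0 and 1 Polr1c peaks.

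Against the whole set of strong regions, the windows held many of the widely shared ones. Peaks of q at most 0.01 from all lists, joined when within 1 kb, formed 1584 autosomal regions, of which 33 (2.08%) lay in the windows. Only 0.758% of all regions, 12 of them, were found in at least 5 lists, and 6 of these 12 were in the windows, 5 on the telomere side and 1 on the centromere side. All 6 lists shared 4 regions: the low end of chromosome 9, the high ends of chromosomes 7 and 14, and an interior region, chr14:19415690-19419678. Of the 16 telomere-side regions, 12 (75%) were found in at least 2 lists, against 3 of 17 (17.6%) on the centromere side and 14.5% in the rest.

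Counting all member peaks, whatever their q, the lists overlapped more in the windows on average, while pairs of Mgea5 and Panx2 lists went both ways. Averaged over the 30 ordered pairs of lists, 39.0% of the peaks on the centromere side, 30.6% on the telomere side and 22.7% in the rest overlapped a peak of the other list by at least 1 bp. Requiring a reciprocal overlap of 50% gave 7.40%, 13.8% and 4.89%, so the order of the sides turned while both stayed above the rest. Each pair counts equally in these means. On the telomere side Polr1c replicate 1 had only 6 peaks, and its reciprocal shares with the other lists were 33.3% to 66.7%. The turned order thus rests in large part on few peaks. With 1 bp the differences were mainly in the shares of Polr1c peaks. Of its replicate 2 peaks, 80.4% and 81.9% on the centromere side overlapped Mgea5 replicates 1 and 2, against 48.7% and 33.0% in the rest. Of these 138 centromere-side peaks, 39 lie in the chromosome 9 region. There each Mgea5 list has 1 peak over nearly the whole stretch, so their overlap is given in advance. Of the Panx2 replicate 2 peaks, 34.8% on the centromere side overlapped Mgea5 replicate 1, against 41.9% in the rest. Between the Mgea5 lists the shares were 38.7% of replicate 1 and 34.3% of replicate 2 on the centromere side, 31.9% and 37.2% on the telomere side, and 35.03% and 37.1% in the rest.

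The windows were richer in annotated genes than the rest, and in pseudogenes and receptor genes among them. The centromere side held 141 annotated genes (29.7 per Mb) and the telomere side 138 (29.1 per Mb), against 19.4 per Mb in the rest. Pseudogenes made up 46.8% and 31.9% of them, against 18.7%, and protein-coding genes 21.3% and 45.7%, against 44.1%. Protein-coding genes were sparser on the centromere side, at 6.32 per Mb, and denser on the telomere side, at 13.3, against 8.55 in the rest. For pseudogenes the densities were 13.9 and 9.26 per Mb, against 3.63. Olfactory and vomeronasal receptor genes with their pseudogenes made up 9.93% and 9.42%, against 4.33%.

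Peaks at the ends of protein-coding genes were about as frequent as elsewhere for Panx2, and for Mgea5 on the centromere side. Of all autosomal protein-coding genes, 67.8% had peaks of both Mgea5 replicates within 1000 bp of a gene end, 21.3% of both Panx2 replicates and 0.554% of both Polr1c replicates. On the centromere side the counts were 20, 7 and 1 of 30 genes (66.7%, 23.3% and 3.33%), and on the telomere side 37, 14 and 0 of 63 (58.7%, 22.2% and 0%). The Panx2 shares and the centromere-side Mgea5 share were near the background, and the 1 Polr1c gene was Sfi1. On the telomere side the Mgea5 share was lower, at 58.7% against 67.8%. Without the olfactory and vomeronasal receptor genes the Mgea5 shares were 70.4% (19 of 27) and 59.6% (34 of 57), against 72.1% in the rest. Among those receptor genes both Mgea5 replicates had peaks at 1 of 3 and 3 of 6, against 11.7% in the rest.

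The genes with the highest folds at their ends were mostly of weak peaks. For Mgea5 they were Ighmbp2, a helicase gene, with folds of 3.11 and 3.26, Pcmtd2 (2.08 and 2.18), Gm2897 (2.05 and 2.05), Gm2888 (2.10 and 1.78) and Tmem196 (1.81 and 2.06). Only the Ighmbp2 peaks had a q of at most 0.01, and they lie at the gene end just beyond the window of chromosome 19, so they are not members. The same holds for the insulin receptor gene Insr on chromosome 8, where the Polr1c replicate 2 peak with a fold of 3.74 lies outside the window. For Panx2 the highest were Sfi1 (2.16 and 2.33), LOC108167320 (1.78 and 2.73), H60c, which encodes a ligand of a natural killer cell receptor (2.03 and 2.17), Mucl2 (1.97 and 2.21) and the vomeronasal receptor gene Vmn2r129 (1.93 and 2.11), and none of these 10 values belonged to a peak of q at most 0.01. Among all autosomal genes with peaks of both replicates, Pcmtd2 ranked 365 of 13932 for Mgea5, and Sfi1 ranked 247 of 4389 for Panx2 and last of 114 for Polr1c.

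Promoters in the windows carried no strong peak. Of the 43 centromere-side promoters 11 overlapped no list, and 3 overlapped 4 lists. On the telomere side 23 of 77 overlapped none and 1 overlapped 4. How often all autosomal promoters overlap the lists, or a peak of q at most 0.01, was not counted. These counts therefore do not set the ends apart from the rest. The 4 promoters with 4 lists were those of D830030K20Rik, Gm38690, which shares bases with it, LOC115490388 on chromosome 6, and Tmem196. The telomere repeat unit TTAGGG, searched on both strands, occurred in 1 of 43 centromere-side promoters (2.33%), in 10 of 77 telomere-side promoters (13.0%) and in 10.6% of all 31395 autosomal promoters. A tandem pair of this unit occurred in none of the window promoters and in 4 of all. The terminal regions themselves lie outside these promoters and their sequence was not analysed here. The only tRNA gene of the windows, n-TKctt9, a template of RNA polymerase III, had no Polr1c peak within 5 kb in either list.

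Near the limit of 250 kb the members resembled the peaks just beyond it. In the last 50 kb inside the limit of the centromere side there were 144, 184, 66, 142, 2 and 13 peaks in the order of the lists, and in the first 50 kb outside it 157, 175, 63, 150, 3 and 8. On the telomere side the numbers were 214, 184, 57, 173, 1 and 18 inside and 212, 206, 52, 183, 1 and 13 outside.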

How the data were processed

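Peaks of 6 ChIP libraries were analysed, 2 each for Mgea5, Panx2 and Polr1c. Tools listed in the submitters' processing notes are Bowtie2 2.3.5, Trim Galore and MACS3 3.0.0a5, with mm10 as the build. Not given in the sources used here are the control used in calling, the cut-offs, the read depth, and how reads matching several places or known problem regions were treated. The deposited lists hold 3 values per peak that come from the authors: the fold (the ratio of ChIP over background signal), the −log10 p and the −log10 q. Since cut-offs and lengths vary between lists, these values serve here mainly to rank, select or describe peaks of the same list. Where lists are joined, the same q threshold was applied to each, and regions or genes were ordered by the geometric mean fold over lists. Counts of lists and means over lists therefore join values called with unlike cut-offs.

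The windows and counts were computed in Python 3.11.15 with numpy 2.4.6 and pandas 2.3.3, tested on simulated lists with known densities. Zones were compared within each list, and 3 measures (density relative to the rest, median fold percentile, share with q at most 0.01) were tested in 3 contrasts by two-sided exact sign-flip permutation tests over the 6 libraries, adjusted by Benjamini-Hochberg over 9 tests at a threshold of 0.05. Peaks of q at most 0.01 were joined into regions when within 1 kb. Genes came from the RefSeq table of GRCm38.p6, without 329 genes listed below the lowest peak of their chromosome, leaving 46713, of which 20560 are protein-coding. Named regions are those of q at most 0.01 on each side, ranked by number of lists and then by fold. Named genes are the 5 per protein whose peaks at the gene ends have the highest geometric mean fold over the replicates, and the outermost genes with a q of at most 0.01 or peaks of all lists. The members, gene lists, rules and tests were chosen with earlier results of these data known. Alternatives covered window size, single libraries and chromosomes, the reference zone, the setting of the ends, the q threshold, overlap and gene windows. Input libraries were not used here.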

Additional observations from a re-analysis of the deposited data

Results flagged for a closer look

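Some measures moved one way in both libraries of a protein and the other way in both libraries of another, and in no case was the difference between the proteins tested. The relative density of the centromere side, less that of the rest, was -0.391 and -0.278 in the Mgea5 libraries against 26.5 and 0.981 in the Polr1c libraries. Less that of the telomere side it was -0.399 and -0.183 for Mgea5 against 23.3 and 0.718 for Polr1c. The median fold percentile of the centromere side, less that of the rest, was 0.357 and 2.53 for Mgea5 and 4.04 and 4.99 for Panx2, against -47.4 and -25.6 for Polr1c. The share of peaks with q at most 0.01 on the centromere side, less that on the telomere side, was -0.728 and -0.702 percentage points for Mgea5 and -0.318 and -0.763 for Panx2, against 21.8 and 27.9 for Polr1c. The Polr1c values include the region at the low end of chromosome 9. Without it the centromere side had 8.33% against 50% on the telomere side in replicate 1, and 24.2% against 17.0% in replicate 2. The Polr1c lists differ from the others in peak layout as well as in protein, and these cannot be told apart.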

How the results depend on the processing

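Of 240 recomputed values of 19 results, 199 kept their call: the same sign and side of the threshold for a tested difference, whatever its size, or a count or share within 1.5 times. A further 23 counts or shares moved more and 18 differences turned. None of the 9 tests passed the adjusted threshold under any alternative run, and with 5 or fewer libraries none could. With 6 libraries a test could pass only if most of the 9 reached the smallest p. Keeping the side of the threshold therefore says little about stability. No paired analysis was possible because no test compares groups, so replicate numbers give no block. Each test already compares zones within the same library.

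For relative density, the centromere side less the rest (4.44) became -0.315 as a median over chromosomes and -0.00804 in the 4 lists of the larger calling run. The telomere side less the rest (0.583) became -0.135 as a median over chromosomes. The sides against each other (3.86) gave -0.180 as that median, -43.5 with only peaks of q at most 0.01, -0.0289 in the larger calling run, and -0.0189 to 4.71 without each library, the lowest without Polr1c replicate 1. For the median fold percentile, ranking by −log10 q gave 18.999, 7.36 and 11.6 in place of -10.2, -8.18 and -1.998 for centromere side less rest, telomere side less rest, and the sides. The second was 0.854 in the larger calling run and -10.3 to 0.405 without each library, the highest without Polr1c replicate 1. The third was 4.59 in the smaller run and -3.48 to 2.73 without each library, the highest without Polr1c replicate 2. For the share with q at most 0.01, the sides (7.86 points) gave -4.59 without chromosome 9, -1.60 without chromosomes 9 and 14, and -6.49 without the chromosome 9 region. The telomere side less the rest (7.18 points) became -1.83 when each list set its own ends and the peak setting an end was left out, which removes the terminal peaks by construction.

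Overlap between lists (39.0%, 30.6% and 22.7% on the centromere side, the telomere side and in the rest) was 7.40%, 13.8% and 4.89% with a reciprocal overlap of 50%. The count of low ends with 4 lists within 1 kb (2) was 6 within 5 kb and 1 to 2 without each library, needing 4 of the other 5. For high ends the count (10) was 5 to 10, and with q at most 0.01 (8) it was 4 to 8, and 3 at a −log10 q of at least 5. Genes with both Panx2 replicates (21) numbered 13 within 500 bp, 53 within 2500 bp, and 24 to 84 with 1 replicate, the highest without replicate 1. Genes with both Polr1c replicates (1) numbered 2 within 2500 bp and 2 to 18 with 1 replicate. Except where the construction is named, the cause of these changes was not tested. Read depth is unknown, so a missing peak is not evidence of no binding.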
